A study of Mus musculus with 4 samples.

Results

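The genes described here are 33 genes of glucose uptake, glycolysis, lactate exchange and pyruvate entry into mitochondria, followed in RNA from the embryonic mouse outflow tract. They were taken by name from a table of 45706 genes, and all 33 passed the filter on low counts that left 16570 genes for testing. The outflow tract is the arterial end of the embryonic heart, from which the roots of the aorta and pulmonary artery form. Wild-type (WT) C57BL/6 embryos were compared with Sox17eKO embryos, both at embryonic day 12.5. Sox17eKO embryos lack Sox17, which encodes a transcription factor of endothelial cells, in aortic root endothelium, where an Nfatc1 enhancer drives Cre recombinase. Each genotype had 2 libraries, and each library pooled the outflow tracts of 10 hearts, so every p-value reflects pool-to-pool variation. The study set out to identify genes controlled by SOX17. Endothelium is only part of this tissue, and the deleted territory only part of the endothelium, so the levels below are those of all the cells together. In such bulk samples, fewer cells of a type and less RNA per cell cannot be told apart.

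Glycolysis splits glucose into pyruvate in the cytosol, with a small yield of ATP and no need for oxygen. Pyruvate is then either reduced to lactate and exported or passed to the pyruvate dehydrogenase complex in the mitochondria. The embryonic heart is known for its reliance on glycolysis and lactate before birth, when fatty acid oxidation takes over. Many of these enzymes exist as paralogs, one of which is the form of striated muscle, and many are textbook targets of the hypoxia-inducible factor HIF1.

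Reads assigned to genes ranged from 8113463 in WT pool 2 to 21883956 in Sox17eKO pool 2. Sox17 itself was at 6.05 and 6.83 CPM (counts scaled to library size) in the WT pools and at 2.76 and 2.82 in the Sox17eKO pools, and its fitted log2 fold change was -1.19 (adjusted p = 0.00574 by edgeR). Reads placed outside annotated exons made up 20.4% to 22.2% of uniquely placed reads in WT and 29.5% to 34.1% in Sox17eKO. All 13 erythroid markers in the table had a lower fitted level in Sox17eKO, and their summed level was 2656 and 3581 CPM in WT against 1742 and 2360 in Sox17eKO. The 10 cardiomyocyte markers, which mark the muscle wall of the labelled tissue, summed to 30620 and 30070 CPM in WT and 41650 and 42400 in Sox17eKO. Of these 10, Ttn (titin) rose from 8111 and 6485 to 19390 and 18320 CPM, Nppa was called lower (log2 fold change -0.34), and the median log2 fold change was -0.11. The 8 endothelial markers summed to 856 and 871 CPM in WT and 786 and 845 in Sox17eKO, with Tie1 called lower (log2 fold change -0.34). The 6 epicardial markers were all lower in fitted level, with Upk3b and Lrrn4 called, and summed to 299 and 325 CPM in WT and 275 and 249.9 in Sox17eKO. The 5 platelet markers were likewise all lower, with Itga2b called, and summed to 30.7 and 25.7 in WT and 19.9 and 19.0 in Sox17eKO. The 4 liver markers singled out libraries of both genotypes, at 71.3 and 11.5 CPM in WT and 5.38 and 123 in Sox17eKO. The 5 skeletal muscle markers summed to 61.2 to 72.4 CPM in the 4 pools, with Myod1 and Myf5 at 0.18 CPM or less in every pool. The part of these shifts in the results below was not tested.

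None of the 33 genes differed between the genotypes past an adjusted p of 0.05 (edgeR quasi-likelihood fit, Benjamini-Hochberg over all genes). Of all genes tested 5.35% did, 4.13% higher and 1.22% lower in Sox17eKO. At an unadjusted p under 0.05 there were 8, of which 6 were lower and 2 higher in Sox17eKO, against 20.9% of all genes (8.71% lower and 12.2% higher). DESeq2 called 0 of the 25 to which it gave an adjusted p, beside 7.68% of all genes that had one. Pfkfb2 was among the 8 without an adjusted p. By DESeq2 4 of the 33 had an unadjusted p under 0.05, beside 11.5% of all genes. Limma-voom called 0 of the 33, beside 3.12% of all genes, with 7 at an unadjusted p under 0.05, beside 20.1%. The median log2 fold change of the 33 genes was -0.08, beside -0.01 over all genes tested, and single values ran from -0.23 (Pkm) to 0.32 (Pfkfb2). A value above 0 was found for 11 of the 33, against 48.2% of all genes tested. Both Sox17eKO pools lay above both WT pools for 7 of the 33 (26.5% of all genes) and below for 11 (26.2% of all genes). The 95% intervals of 32 of the 33 lay within a 1.5-fold change in either direction, and Pfkfb2 was the exception. At a 1.25-fold change, 17 of the 33 intervals lay inside. Pfkfb2 alone had a fitted change of at least that size, as 20.9% of all genes did. An interval that crosses 0 does not show that a level was equal in both genotypes.

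**Figure D1:**
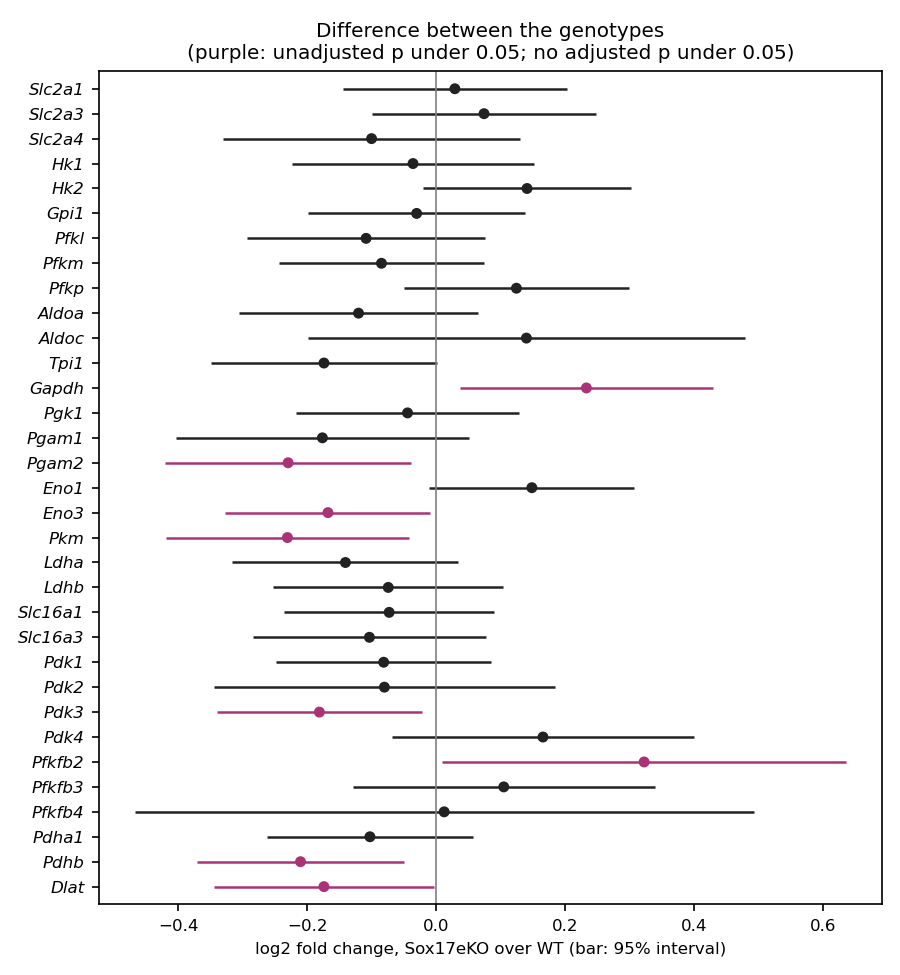
Log2 fold change of Sox17eKO over WT for each of the 33 genes (points) with its 95% interval (bars) from the edgeR fit, ordered from glucose uptake at the top to pyruvate dehydrogenase at the bottom. No gene passed after adjustment, and the 8 purple genes had an unadjusted p under 0.05.

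Levels between genes were compared as CPM per kb of exon. The strongest were Aldoa, the aldolase that cleaves fructose bisphosphate, at a mean over the 4 pools of 451.1 CPM per kb, Tpi1, triose phosphate isomerase, at 328, Ldha, the lactate dehydrogenase subunit that favours lactate, at 317, and Pkm, pyruvate kinase, at 203. Aldoa stood above the others in every pool, with 434 and 506 in WT and 429 and 435 in Sox17eKO. Tpi1 and Ldha were neighbours within their spread, with 326, 369, 308 and 308 for Tpi1 and 313, 351, 304 and 299 for Ldha, the WT pools first. Pgam2, the muscle phosphoglycerate mutase, followed at 182. The next neighbours, Ldhb (119), Slc2a1 (106) and Eno3 (104), overlapped one another across the pools, and Pdha1 (90.1) lay below Eno3 in every pool. The lowest 4 were Aldoc, at 2.71, and the PFKFB enzymes, which set the level of the phosphofructokinase activator fructose 2,6-bisphosphate, with 3.24 for Pfkfb3, 1.57 for Pfkfb2 and 0.920 for Pfkfb4. Among all genes tested, the highest and lowest of the 33 genes stood at the percentiles 98.6 and 16.7 of level per kb.

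**Figure D2:**
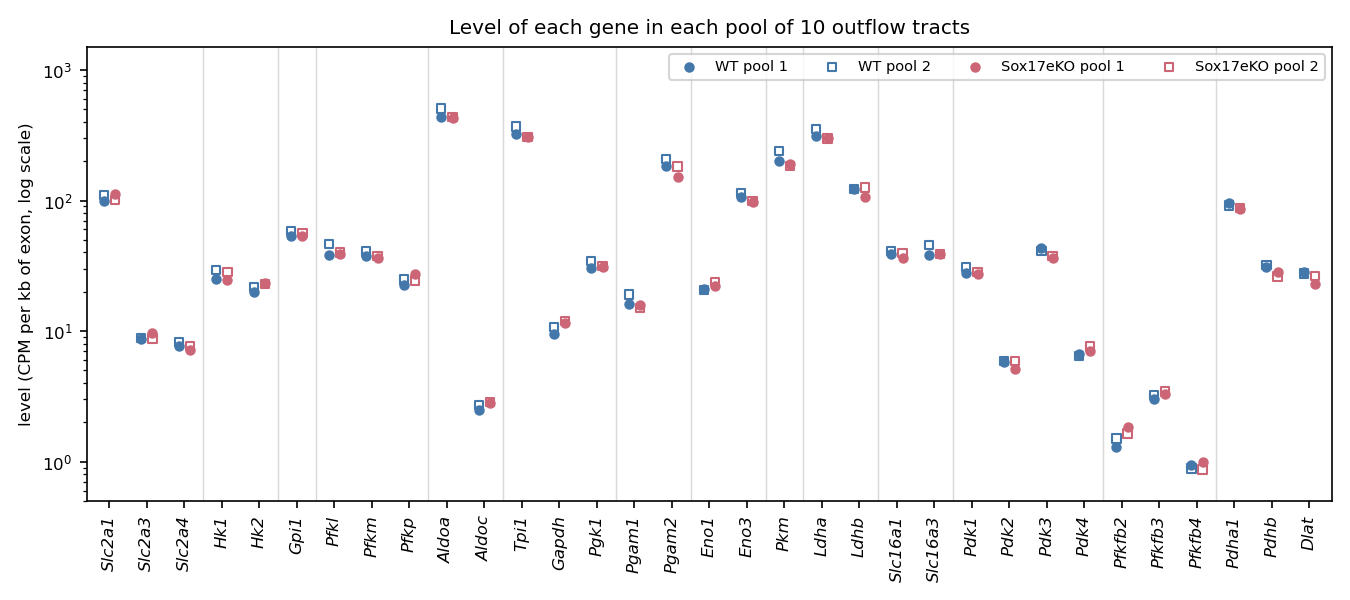
Level of each gene in CPM per kb of exon (log scale), with 1 symbol per pool (filled, pool 1; open, pool 2; blue, WT; red, Sox17eKO) and grey lines between enzyme groups. Aldoa, Tpi1 and Ldha lie above 298 CPM per kb in every pool, and the pools of the 2 genotypes lie close together for each gene.

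Gapdh, the dehydrogenase widely used as a reference gene, was at only 10.9 CPM per kb, from 503, 350, 693 and 1090 reads. Its neighbours in the pathway, Tpi1 and Pgk1, the phosphoglycerate kinase, had 11571, 8023, 12288 and 18632 reads and 880, 607, 1010 and 1550 reads in the same pools. The glycolytic genes are known for their many processed pseudogenes, and the table holds alignments that were not unique in a row of their own (72.6% to 79.0% of alignments). To see how far this touches each gene, its longest coding transcript in GENCODE M21 was cut into all stretches of 50 bases, and those also found in a transcript of another gene were counted. The share was 82.5% for Gapdh, which had stretches in common with 222 other genes, 213 of them pseudogenes. It was 72.2% for Eno1, the ubiquitous enolase, 68.0% for Pgk1 and 41.5% for Pgam1, the ubiquitous phosphoglycerate mutase. Pkm followed at 34.4%, Pdhb at 30.3% and Ldhb at 27.0%. No such stretch was found for 14 genes, among them Hk2, Pgam2 and Eno3. No source used here gives the read length, and copies without an annotated transcript would not be seen this way.

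For Gapdh, Eno1 and Pgam1, the coding stretch that occurs in the most other genes is shown, because it stands for reads that cannot be assigned to 1 gene. The Gapdh stretch, bases 415 to 464 of its coding sequence, was found in 84 other genes. The Eno1 stretch (bases 445 to 494) was found in 5, and the Pgam1 stretch (bases 451 to 500) in 3. Under Eno1 stands the same position of Eno3, the muscle enolase, with the bases that differ between these paralogs in capitals. There are 5 in this window, and the coding sequences of 1305 bases were 76.7% identical.
Gapdh: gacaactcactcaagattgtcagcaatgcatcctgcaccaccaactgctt
Eno1: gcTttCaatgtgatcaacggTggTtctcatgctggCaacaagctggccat
Eno3: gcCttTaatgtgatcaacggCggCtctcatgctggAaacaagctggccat
Pgam1: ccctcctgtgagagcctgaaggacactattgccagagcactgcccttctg

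Levels were recomputed over the same transcript, first per kb of its whole length and then per kb of its unshared stretches. Gapdh was in position 23 of 33 by the first measure, at 31.8, and in position 8 by the second, at 188. Eno1 moved from position 14 to 5, from 58.0 to 214, and Pgk1 from 20 to 11, from 39.1 to 125. Pgam1 moved only from 25 to 23. Aldoa was in position 1 by every measure. Near neighbours changed order with the length used: per kb of transcript Ldha (578) was above Tpi1 (561) and Pdha1 (118) above Eno3 (116). The second measure holds only if reads from shared stretches were not counted for the gene, which was not tested. Genes with shared stretches held reads too. Eno1b, a protein-coding gene with stretches in common with Eno1, had 1096, 795, 1261 and 1974 reads beside 1452, 874, 1731 and 2813 for Eno1, and the Pkm copy Gm6560 had 3393, 2366, 3562 and 5488 beside 12938, 9437, 13890 and 20107 for Pkm. For Pgam1 and Gapdh, copies held more reads than the gene itself. Pgam1-ps2 had 730, 458, 748 and 1084 reads beside 410, 298, 454 and 657 for Pgam1. The 196 Gapdh pseudogenes counted summed to 934, 571, 1096 and 1600 reads beside 503, 350, 693 and 1090 for Gapdh. Reads of such genes and their copies are uncertain in both.

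**Figure D3:**
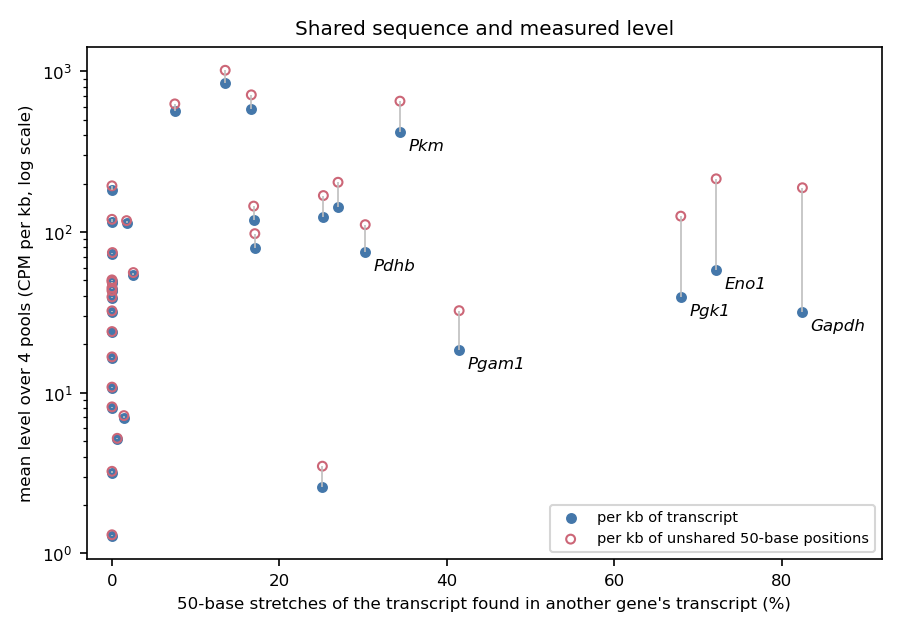
Mean level over the 4 pools (log scale) against the share of 50-base stretches found in transcripts of other genes, for the 33 genes, with the level per kb of the longest coding transcript (filled blue) joined to the level per kb of its unshared stretches (open red). Gapdh, Eno1 and Pgk1, at the right, lie at 31.8, 58.0 and 39.1 by the first measure and at 188, 214 and 125 by the second.

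Among the glucose transporters, Slc2a1 (GLUT1, the basal transporter, also of red cells and brain endothelium) held most of the family's reads per kb, at 85.8% to 87.0% in the 4 pools. Its level was 349 and 386 CPM in WT and 394 and 356 in Sox17eKO. The genotypes overlapped, and the log2 fold change was 0.03 with a 95% interval of -0.14 to 0.20. The erythroid markers given above were lower in sum in both Sox17eKO pools, and their part in the Slc2a1 values was not tested. Slc2a3 (GLUT3, a high-affinity transporter) was at 63.0 and 64.0 CPM in WT and 70.3 and 63.6 in Sox17eKO, also overlapping. Slc2a4 (GLUT4, the insulin-responsive transporter of adult muscle and fat) was low, at 24.8 to 28.7 CPM in all pools, and made up 5.52% to 6.66% of the family's reads per kb.

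Hexokinases trap glucose in the cell as glucose 6-phosphate. Hk1, the widely expressed form, was at 216 and 251 CPM in WT and 212 and 242 in Sox17eKO. Hk2, the insulin- and hypoxia-responsive form of muscle, was at 119 and 130 in WT and 138 and 137 in Sox17eKO. Both Sox17eKO pools lay above both WT pools for Hk2, as they did for 26.5% of all genes tested, and its log2 fold change of 0.14 did not pass (SE 0.08, edgeR adjusted p = 0.306). Hk1 made up 55.9% and 57.4% of the pair's reads per kb in WT and 51.7% and 55.4% in Sox17eKO. Gpi1, the isomerase that follows, was at 343 and 378 CPM in WT and 342 and 363 in Sox17eKO.

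Phosphofructokinase, the committed step, is built from 3 paralogs, and all were present. Pfkl, the liver form, was at 257 and 311 CPM in WT and 259 and 267 in Sox17eKO. Pfkm, the muscle form, was at 126 and 136 in WT and 121 and 125 in Sox17eKO, lower in both Sox17eKO pools. Pfkp, the platelet form, was at 301 and 333 in WT and 365 and 326 in Sox17eKO. Per kb of exon, Pfkl held 38.0% to 41.6% of the family, Pfkm 35.4% to 38.3%, and Pfkp 22.8% and 22.2% in WT and 26.6% and 23.9% in Sox17eKO. The order depends on the length used: the exons of Pfkp add up to 13401 bases and its longest coding transcript to 4145, and per kb of transcript Pfkp held 38.1% to 44.1% and Pfkm 21.1% to 23.6%. Pfkp shares 748 bp of exon with Pitrm1 on the opposite strand, and no source used here says whether reads were counted by strand. Its log2 fold change of 0.12 was -0.07 after removal of the length trend described further on.

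Aldoa made up over 99.3% of aldolase reads per kb in every pool, and Aldoc, the brain form, was at 8.07 and 8.86 CPM in WT and 9.24 and 9.28 in Sox17eKO. Aldoa was at 1264 and 1472 CPM in WT and 1250 and 1267 in Sox17eKO. Both Sox17eKO pools were near WT pool 1, and WT pool 2 stood above the other pools. Tpi1 was lower in both Sox17eKO pools, at 897 and 1015 CPM in WT and 847 and 847.5 in Sox17eKO (log2 fold change -0.17, SE 0.08, edgeR adjusted p = 0.242), and without WT pool 2 its log2 fold change was -0.08. Gapdh ran the other way, at 39.0 and 44.3 CPM in WT and 47.8 and 49.6 in Sox17eKO, with no overlap. Its log2 fold change of 0.23 (95% interval 0.04 to 0.43) did not pass (edgeR adjusted p = 0.155). With a trend on GC content removed from each library, Gapdh was called higher (0.28, edgeR adjusted p = 0.0296). In that fit 8.86% of all genes were called in either direction. With length and GC trends both removed, Gapdh did not pass (0.29, edgeR adjusted p = 0.0626), and 2.24% of all genes were called. Without WT pool 1 the log2 fold change of Gapdh was 0.14. Its pseudogenes together held more reads than Gapdh in every pool, as given above. Pgk1 was at 68.3 and 76.8 CPM in WT and 69.7 and 70.5 in Sox17eKO, which overlapped. Gapdh lies on chromosome 6 from 125161715 to 125166467, and Pgk1 on chromosome X from 106187100 to 106203699, in mm10.

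Phosphoglycerate mutase and enolase each have a muscle form and a ubiquitous form. Pgam1 held 7.64% to 9.38% of the mutase reads per kb of exon, so Pgam2 held most, and per kb of unshared stretches Pgam2 (193) was also above Pgam1 (32.4). Reads at Pgam1-ps2, which outnumbered those of Pgam1, are not in this share. Eno1 held 15.3% to 19.4% of the enolase reads per kb of exon, but per kb of unshared stretches Eno1 (214) was above Eno3 (120). Which enolase is the more abundant thus depends on how shared sequence is treated. Pgam2 (chromosome 11 from 5801640 to 5803733) was at 155 and 176 CPM in WT and 128 and 153 in Sox17eKO. Both Sox17eKO pools were lower, by a small margin in pool 2, and the log2 fold change of -0.23 (95% interval -0.42 to -0.04) did not pass (edgeR adjusted p = 0.148). The log2 fold change of Pgam2 was -0.37 without Sox17eKO pool 2, -0.11 without Sox17eKO pool 1 and -0.14 without WT pool 2. Eno3 was at 186 and 198 CPM in WT and 169 and 172 in Sox17eKO (log2 fold change -0.17, SE 0.08, edgeR adjusted p = 0.211). Pgam1 was at 31.8 and 37.7 in WT and 31.3 and 29.9 in Sox17eKO. Eno1 was at 113 and 111 in WT and 119 and 128 in Sox17eKO, so Eno1 had the higher and Eno3 the lower values in both Sox17eKO pools. The Eno1 share of the pair's reads per kb of exon was 16.4% and 15.3% in WT and 18.6% and 19.4% in Sox17eKO. Per kb of transcript it was 31.8% and 30.1% in WT and 35.2% and 36.4% in Sox17eKO. Ckm, a creatine kinase of skeletal and heart muscle, was at 66.1 and 66.9 CPM in WT and 56.6 and 66.4 in Sox17eKO, lowest in the pool where Pgam2 was lowest. It made up most of the skeletal muscle sum, and Tnnt3, at 3.49 and 4.17 in WT and 3.93 and 3.82 in Sox17eKO, was not lowest there. The part of muscle content in the values of the muscle forms was not tested.

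Pkm (chromosome 9 from 59656368 to 59679375), which encodes both splice forms of muscle-type pyruvate kinase, had the lowest fold change of the 33 genes. Its level was 1003 and 1194 CPM in WT and 958 and 915 in Sox17eKO. Both Sox17eKO pools lay below both WT pools, as for 26.2% of all genes tested, and the distance from the nearer WT pool was smaller than that between the WT pools. The log2 fold change was -0.23 (95% interval -0.42 to -0.04, edgeR adjusted p = 0.141). Without WT pool 1 it was -0.35, and without WT pool 2 it was -0.10. Counts per gene do not separate the splice forms. In GENCODE M21 Pkm shares 767 bp of exon with Gm49759 on the same strand. Whether reads over these bases were counted for Pkm was not tested.

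Lactate dehydrogenase is a tetramer of Ldha and Ldhb subunits, the latter favouring pyruvate. Ldha was at 1037 and 1162 CPM in WT and 1006 and 989 in Sox17eKO (log2 fold change -0.14, SE 0.08, edgeR adjusted p = 0.351), lower in both Sox17eKO pools. Ldhb was at 191 in both WT pools and at 166 and 197 in Sox17eKO. Ldha made up 72.0% and 74.2% of the pair's reads per kb in WT and 74.2% and 70.4% in Sox17eKO. Of the monocarboxylate transporters that move lactate with a proton, Slc16a1 (MCT1) was at 173 and 181 CPM in WT and 161 and 175 in Sox17eKO. Slc16a3 (MCT4, a transporter of glycolytic cells) was at 203 and 244 in WT and 207 and 208 in Sox17eKO. The groups overlapped for both transporters, and each held about the same share of the pair, with Slc16a1 at 47.1% to 50.6%.

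None of the 3 pyruvate dehydrogenase subunits passed. All 3 had the lower values in both Sox17eKO pools, as 26.2% of all genes tested did. Pdhb (chromosome 14 from 8165996 to 8173025), the E1 beta subunit, was at 119 and 124 CPM in WT and 109 and 101 in Sox17eKO. It had the smallest p of the 33 genes, with a log2 fold change of -0.21 (95% interval -0.37 to -0.05, edgeR adjusted p = 0.117). The pseudogene Gm6123, with stretches in common with Pdhb, had 784, 537, 780 and 1173 reads beside 1536, 978, 1579 and 2222 for Pdhb. Dlat, the E2 core enzyme, was at 138 and 135 in WT and 112 and 129 in Sox17eKO (log2 fold change -0.17, SE 0.08, edgeR adjusted p = 0.229). Pdha1, the X-linked E1 alpha subunit, was at 355 and 342 in WT and 323 and 326 in Sox17eKO (-0.10, edgeR adjusted p = 0.470). With the GC trend removed, Pdhb and Dlat were called lower (-0.28 and -0.23, edgeR adjusted p = 0.00850 and 0.0313), in a fit that called 8.86% of all genes. With length and GC trends both removed, neither passed (-0.20 each, edgeR adjusted p = 0.104 and 0.133), and 2.24% of all genes were called. Without Sox17eKO pool 1, Dlat was at -0.08 on the log2 scale (edgeR adjusted p = 0.798). Other parts of the complex did not pass either, Pdhx at -0.01 and Dld at -0.05 on the log2 scale.

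The kinases that switch this complex off differed in level. Pdk3 and Pdk1 held 47.4% to 51.7% and 33.4% to 36.6% of the family's reads per kb, and Pdk2 and Pdk4 less than 10%. Pdk3 was at 110 and 105 CPM in WT and 93.7 and 96.2 in Sox17eKO, without overlap (log2 fold change -0.18, SE 0.08, edgeR adjusted p = 0.175). It was called lower with the GC trend removed (-0.25, edgeR adjusted p = 0.0153), where 8.86% of all genes were called. With length and GC trends both removed, Pdk3 did not pass (-0.15, edgeR adjusted p = 0.253), and 2.24% of all genes were called. Pdk1, a textbook HIF1 target, was at 216 and 240 in WT and 212 and 219 in Sox17eKO, which overlapped. Pdk2 was at 16.1 to 18.7 CPM in all pools. Pdk4, the form induced by fasting and fatty acids, was at 23.3 and 22.7 in WT and 24.8 and 26.7 in Sox17eKO (log2 fold change 0.17, SE 0.11, edgeR adjusted p = 0.420).

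Pfkfb2 (chromosome 1 from 130689182 to 130729253), the heart form of its family, had the highest fold change. Its level was 9.46 and 10.9 CPM in WT and 13.5 and 11.9 in Sox17eKO, from 122, 86, 195 and 261 reads. The groups did not overlap, and the log2 fold change of 0.32 (95% interval 0.01 to 0.64) did not pass (edgeR adjusted p = 0.225). Without WT pool 1 it was 0.21. In GENCODE M21 Pfkfb2 shares 1262 bp of exon with Gm29427 on the same strand, which had 1 read in all. Whether reads over these bases were counted for Pfkfb2 was not tested. Pfkfb3, the inducible form, was at 23.0 and 24.4 in WT and 24.7 and 26.1 in Sox17eKO, and Pfkfb4 at 4.23 to 4.83 in all pools.

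The share of each paralog within its family does not depend on the scaling between libraries. Of 19 shares computed, 7 had genotypes that did not overlap (Hk1, Pfkp, Aldoa, Eno1, Pdk3, Pdk4 and Pfkfb2), and each difference was 3.20 percentage points or less per kb of exon. Per kb of transcript the Eno1 difference was 4.85 points. With 2 pools against 2, the exact two-sided permutation test cannot go below p = 0.333, the value that each of these 7 had. A share is thus expected to show no overlap at that rate without any genotype difference. Shares within a family also depend on each other. The smallest adjusted p over the 19 shares was 0.905.

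**Figure D4:**
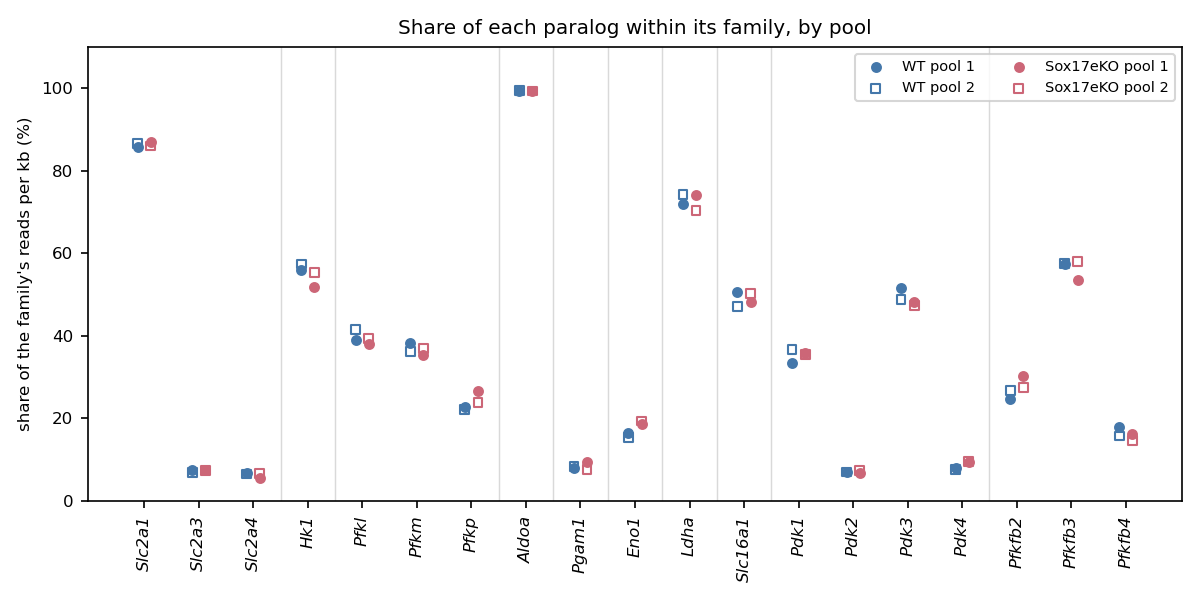
Share of each paralog in its family's summed reads per kb of exon (percent, y axis starting at 0) in each pool (filled, pool 1; open, pool 2; blue, WT; red, Sox17eKO), with grey lines between families. Slc2a1, Aldoa and Ldha hold most of their families in all 4 pools, and the largest difference between genotype means is 3.20 points.

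The 33 genes varied between the WT pools as well. In WT pool 2, the shallowest library, 26 of the 33 were higher than in WT pool 1, against 50.3% of all genes tested, with a median log2 difference of 0.13 beside 0.00 for all genes. Between the Sox17eKO pools 23 of the 33 were higher in pool 2, against 48.3% of all genes tested, with a median log2 difference of 0.02 beside -0.01 for all genes. Without WT pool 2 the median log2 fold change of the 33 genes between the genotypes was -0.01 and 15 had a value above 0, where 11 had in all libraries. Without WT pool 1 the median was -0.13.

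Fold changes ran with exonic length. Across the 33 genes, log2 fold change and log2 exonic length had Pearson's r = 0.481 and Spearman's rho = 0.462, and across 13361 protein-coding genes tested r = 0.367 and rho = 0.459. These are correlations across genes, which share their libraries and are not independent replicates. The median exonic length was 3861 bases for the 33 genes and 4584 for the protein-coding genes. With a smooth trend on exonic length and gene span removed from each library, the r across the 33 genes was -0.06 and the median log2 fold change -0.05, and 0 of the 33 were called (edgeR), with 5 at an unadjusted p under 0.05, beside 1% and 13.5% of all genes in that fit. Short genes such as Pgam2 (-0.05) and Eno3 (-0.04) moved up towards 0, and Ldhb (0.05) and Pgk1 (0.05) moved up past it. Pkm (-0.23), Gapdh (0.28) and Pfkfb2 (0.26) kept values of similar size. Long genes with positive or small values moved down, such as Hk1 (-0.16), Pfkp (-0.07) and Slc2a3 (-0.01).

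**Figure D5:**
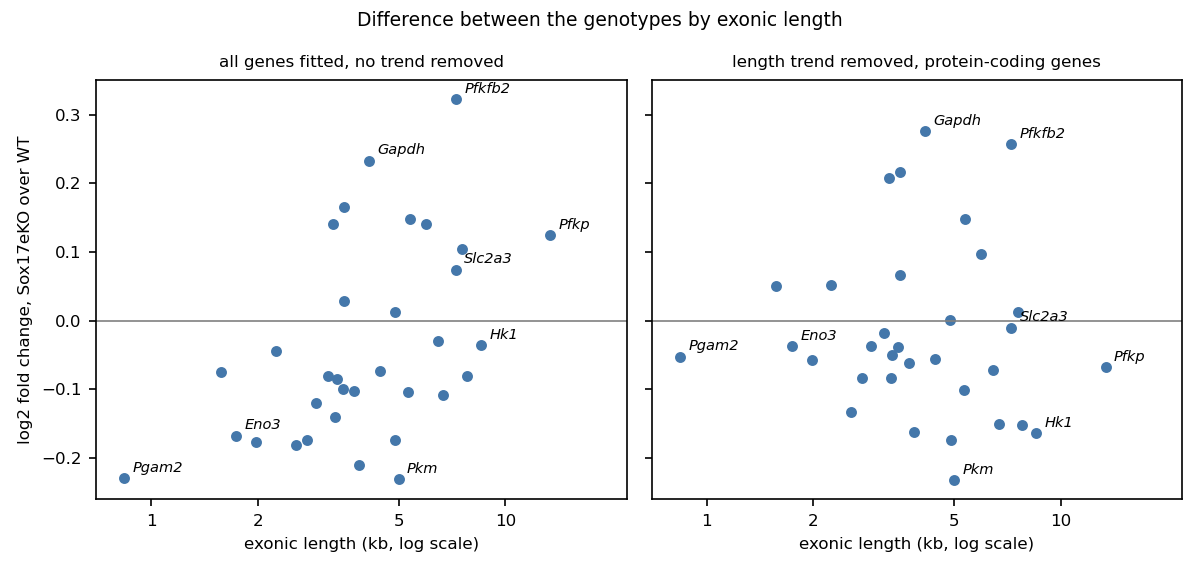
Log2 fold change of Sox17eKO over WT against exonic length (log scale) for the 33 genes, in the fit of all genes (left) and after a smooth length trend was removed from each library (right). The values rise with length on the left (r = 0.481) and not on the right (r = -0.06).

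Other lists of glucose metabolism are read against 5.35% of all genes called and 20.9% at an unadjusted p under 0.05. Of 22 other genes of glucose transport, glycolysis and pyruvate use that could be tested, 0 passed by edgeR, with 2 at an unadjusted p under 0.05, and the median log2 fold change was -0.06. Bsg, the chaperone of both lactate transporters, was at 510 and 560 CPM in WT and 496 and 479 in Sox17eKO, and did not pass (edgeR adjusted p = 0.351). The 7 pentose phosphate genes and the 5 genes of the serine branch had 0 calls, with 1 and 0 at an unadjusted p under 0.05. Of 13 glycogen genes, 1 was called and 3 had an unadjusted p under 0.05. Gbe1, the enzyme that adds branches to glycogen, fell from 71.5 and 75.0 CPM in WT to 61.7 and 57.6 in Sox17eKO, with a log2 fold change of -0.30 (SE 0.08, edgeR adjusted p = 0.0401). DESeq2 and limma-voom did not call Gbe1, and its call ended with library size scaling, in a fit that was not robust, without WT pool 2 and without either Sox17eKO pool.

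The HIF list showed 0 calls among 15 genes by edgeR. The median log2 fold change was -0.02, with 7 values above 0 and 8 below. An unadjusted p under 0.05 was found for 3 (20.9% of all genes), with Arnt higher and Bnip3 and Ddit4 lower. Arnt was at 34.8 and 37.1 CPM in WT and 41.2 and 43.9 in Sox17eKO (log2 fold change 0.25, edgeR adjusted p = 0.139). Hif1a, the oxygen-regulated subunit, was at 431 and 399 CPM in WT and 342 and 393 in Sox17eKO (log2 fold change -0.18, edgeR adjusted p = 0.243). The HIF1 target Bnip3, a mitophagy receptor, was at 81.0 and 91.3 in WT and 74.5 and 65.4 in Sox17eKO (-0.30, edgeR adjusted p = 0.0542). Bnip3 was called lower in 6 of the 17 alternatives. Its log2 fold change was -0.39 without WT pool 1 and also -0.39 without Sox17eKO pool 1. Hif1a was called lower with the GC trend removed (-0.24, edgeR adjusted p = 0.0409), where 8.86% of all genes were called. Vegfa, another target, was at 81.3 and 98.6 in WT and 108 and 95.3 in Sox17eKO (0.18, edgeR adjusted p = 0.281).

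Promoter windows from RefSeq (GRCm38.p6, from 250 bases before to 50 after each annotated start) were found for 31 of the 33 genes. A core of the HIF binding site, ACGTG or CACGT on the other strand, was in at least 1 window of 18 of these 31 genes (58.1%), against 21.8% of the 27025 genes in the table of windows. A gene can have several windows. Counted by window, 22 of 47 had a match (46.8%), against 19.6% of all 32851 windows. The letters overlap the E-box CACGTG. Genes with and without a match had a median log2 fold change of -0.08 each. The windows of Ldha (chr7:46845554-46845853, plus strand) and Pgk1 (chrX:106186850-106187149, plus strand) are shown because both genes are classical examples of hypoxic induction. Capitals mark every match, 5 in Ldha and 2 in Pgk1, some of them overlapping.
Ldha: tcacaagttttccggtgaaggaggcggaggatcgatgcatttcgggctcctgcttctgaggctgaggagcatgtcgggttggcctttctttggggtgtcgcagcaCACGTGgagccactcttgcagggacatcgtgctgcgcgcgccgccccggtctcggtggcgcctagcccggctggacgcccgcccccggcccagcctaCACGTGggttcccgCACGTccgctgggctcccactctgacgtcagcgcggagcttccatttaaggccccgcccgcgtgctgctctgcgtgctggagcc
Pgk1: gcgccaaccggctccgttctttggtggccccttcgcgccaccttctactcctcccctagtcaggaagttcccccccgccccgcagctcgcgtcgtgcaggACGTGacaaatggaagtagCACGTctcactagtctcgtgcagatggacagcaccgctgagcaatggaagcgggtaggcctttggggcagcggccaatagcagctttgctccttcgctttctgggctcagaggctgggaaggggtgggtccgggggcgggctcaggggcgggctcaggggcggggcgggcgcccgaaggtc

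SOX factors bind a core close to AACAAT, or ATTGTT on the other strand. It was in a window of 3 of the 31 genes (9.68%), against 12.2% of all genes in the table. Counted by window, the shares were 8.51% and 10.7%. The 3 genes were Hk2, Pfkfb2 and Pfkfb4, with log2 fold changes of 0.14, 0.32 and 0.01, none past the threshold. Windows with a match are shown for Hk2 (chr6:82774405-82774704, minus strand) and Pfkfb2 (chr1:130715772-130716071, minus strand), with the match in capitals, because the study looked for SOX17 targets. A match is a description of the letters and not a binding site.
Hk2: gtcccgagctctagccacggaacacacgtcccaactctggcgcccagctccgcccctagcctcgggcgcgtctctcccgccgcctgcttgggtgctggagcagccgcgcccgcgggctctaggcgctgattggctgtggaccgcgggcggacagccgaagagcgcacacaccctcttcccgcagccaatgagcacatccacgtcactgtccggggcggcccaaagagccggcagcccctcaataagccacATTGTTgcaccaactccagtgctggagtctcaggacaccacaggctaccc
Pfkfb2: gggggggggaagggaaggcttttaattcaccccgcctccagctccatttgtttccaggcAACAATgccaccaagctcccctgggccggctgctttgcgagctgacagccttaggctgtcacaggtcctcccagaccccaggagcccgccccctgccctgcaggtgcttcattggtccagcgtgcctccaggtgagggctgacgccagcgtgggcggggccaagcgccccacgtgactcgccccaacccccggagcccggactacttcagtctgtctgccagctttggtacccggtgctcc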

How the data were processed

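RNA was measured in 4 libraries of outflow tract, 2 WT and 2 Sox17eKO, each from 10 pooled hearts, per the labels' protocols. Libraries kept strand information and were made from TRIzol-extracted total RNA, again per those protocols. The deposited values are raw counts of reads for each Ensembl gene, and TopHat2, HTSeq and the mm10 build are named in the submitters' processing notes. Their versions, the annotation release and any strand setting are not stated in the labels. Symbols, coordinates and exonic lengths came from GENCODE M21 (GRCm38), which lacked 563 of the 45706 table genes, and promoter windows from RefSeq. Library sizes exclude the 5 summary rows of HTSeq.

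Genotypes were compared with the quasi-likelihood F test of edgeR (edgeR 4.0.16, R 4.3.3, robust, prior count 0.125) with TMM scaling, a genotype term and the 16570 genes left by filterByExpr, with a Benjamini-Hochberg adjusted p under 0.05 as the threshold. CPM are TMM-scaled, standard errors were derived from the F statistic, and intervals are at 95%. Pools of a genotype were not duplicates of one library (chi-square over its degrees of freedom: 5.16 for WT, 6.51 for Sox17eKO). The scripts were tested on simulated counts. Alternatives were DESeq2 1.42.0, limma-voom (limma 3.58.1), other scalings and filters, leaving out each library, a replicate block, and smooth trends on length (exonic length and gene span) or GC content removed from each library (mgcv 1.9.3, protein-coding genes only). Shares per kb of the longest coding transcript were added after seeing the data. A removed trend also removes any genotype difference that runs with length or GC content.

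The genes and lists were chosen with earlier results of these data known. By the rule for named genes all 33 genes are described, and others where a list called them, plus Sox17. Arnt, Bsg, Hif1a, Bnip3, Vegfa, Pdhx, Dld, Ddit4, Ugp2, Tkt and the single cell type markers were chosen after their values were seen. So were the near copies Eno1b, Gm6560, Gm6123 and Pgam1-ps2 and the summed Gapdh pseudogenes. One shared sequence stretch is not reported here.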

Additional observations from a re-analysis of the deposited data

How the results depend on the processing

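Under 17 alternatives, 6 of the 33 genes were called in at least 1. Removing the GC trend gave 1 gene called higher and 3 called lower, in a fit that called 8.86% of all genes. Removing the length and GC trends together gave 0 of the 33 called, beside 2.24% of all genes. In the fit of all genes and libraries 0 of the 33 were called in either direction, beside 5.35% of all genes. The cause was not tested. With 1 library left out, 1 genotype had only 1 pool, so the number called in those fits is not given. Pkm was called in such a fit only. Leaving out 1 library moved the median of the 33 log2 fold changes between -0.134 and -0.0062. The correlation of deviations between replicate 1 of WT and replicate 1 of Sox17eKO was -0.03. This value cannot decide whether replicate numbers pair the samples. With a replicate block 1 gene, Pgam2, was called lower (log2 fold change -0.24, edgeR adjusted p = 0.0257), in a fit that called 10.2% of all genes. Of the 62 other pathway genes tested, 1 was called in the main analysis, beside 5.35% of all genes. The count was 0 with DESeq2, limma-voom, library size scaling and a fit that was not robust. DESeq2 called 409 genes in all (7.68% of those with an adjusted p), and the others 3.12%, 5.31% and 3.61% of all genes. Without a filter on low counts 2 of 72 were called, beside 4.87% of all genes. On protein-coding genes only the count was 2, beside 5.61%. Removing both trends gave 2, beside 2.24%, and removing the GC trend alone gave 4, beside 8.86%. The count was 4 with the replicate block, beside 10.2% of all genes. For fits with 1 library left out no count is given, as above. Besides Gbe1 the genes called in any alternative were Bnip3 (6 alternatives), Tkt (3), Ddit4, Hif1a and Ugp2 (1 each), all lower. The cause was not tested.

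The sign of the log2 fold change turned in 25 of 561 results under alternatives, in 11 genes. It was -0.0088 for Pfkfb4 with limma-voom, 0.0016 for Gpi1 with library size scaling and 0.0061 for Gpi1 with the GC trend removed. With the length trend removed it was -0.0103 for Slc2a3, -0.0682 for Pfkp, 0.0518 for Pgk1 and 0.0504 for Ldhb. With both trends removed it was -0.0200 for Slc2a3, -0.0710 for Pfkp, 0.0250 for Pgk1, 0.0517 for Ldhb and 0.0142 for Pdk2. With 1 library left out, the lowest and highest values were -0.0456 and 0.104 for Slc2a1, -0.145 and 0.0768 for Hk1, -0.101 and 0.0405 for Gpi1, -0.245 and 0.0356 for Pfkl, -0.134 and 0.0390 for Pgk1, -0.234 and 0.0321 for Slc16a3, -0.0758 and 0.113 for Pfkfb4, -0.207 and 0.0436 for Ldhb and -0.199 and 0.0169 for Pdk2. The Eno1 share differed by 5.21 points and the Pdk4 share by 1.19 when counts were not divided by length, and by 4.85 and 1.26 points per kb of transcript. Depth limits the weakest genes most: Pfkfb4 rested on 34 to 93 reads a library and Pfkfb2 on 86 to 261.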
